A study of Homo sapiens with 16 samples.

Results

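The genes described here are 10 immediate early genes that encode transcription factors or nuclear proteins of the first wave of a cell's response to a stimulus: FOS and FOSB, JUN, JUNB and JUND, EGR1, EGR2 and EGR3, NR4A1, and IER2. They are a set of known immediate early genes that was named with earlier results of these data known, and they were found in the deposited count tables by gene symbol, with no threshold on a measured value. All 10 are among the 62714 genes listed. Each of the 10 passed the filter on low counts in every comparison below, with between 9 and 11797 counts per library. In GENCODE release 44 (GRCh38), FOSB, JUNB, JUND and IER2 lie on chromosome 19, FOS on 14, JUN on 1, EGR1 on 5, EGR2 on 10, EGR3 on 8 and NR4A1 on 12.

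The RNA-seq data came from 4 established human B-cell lymphoma lines, with 16 libraries of ribosomal RNA depleted total RNA. In each line the CREBBP gene (genotype CREBBP -/- in the labels), or as a control the AAVS safe harbour site (AAVS -/-), was cut by Cas9 delivered with its guides in a lentiviral vector, and the cells were kept as pools rather than single clones, so that every group carries the vector and Cas9. Each pool was cultured for 4 h with serum, in RPMI1640 by the labels and in RPMI1640 or IMDM by the methods, without IL4 (baseline) or with 10 ng/ml of IL4. The 4 groups are named AAVS baseline and CREBBP baseline without IL4, and AAVS IL4 and CREBBP IL4 with it, and each has 4 libraries, 1 from each line. SU-DHL4 is line 1 and DOHH2 is line 4. Lines 2 and 3 are OCI-LY7 and SU-DHL10 in an order on which the labels conflict, and 1 of these lines was grown in IMDM while the others were grown in RPMI-1640. Since the replicates are different lines, the spread within a group is the spread between lines, and no line was repeated within a group.

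Total counts per library ranged from 19649735 to 61981976, and levels are given below as CPM, the counts of a gene per 1000000 counts of its library. CREBBP itself, the acetyltransferase that was targeted, was at 269.8 ± 65.4 CPM in AAVS baseline, 299.7 ± 78.8 CPM in AAVS IL4, 231.6 ± 49.2 CPM in CREBBP baseline and 186.9 ± 79.1 CPM in CREBBP IL4 (SD, n = 4), and small Cas9 lesions need not lower a transcript's count. The labelled cell type was borne out by the 6 B-cell markers, all at 1 CPM or more in all 16 libraries, and 7 or 8 of the 8 germinal centre markers reached 1 CPM in each library.

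The 4 AAVS IL4 libraries stood apart from the other 12 in ways that touch every result that uses them. IGHM and IGHD, the heavy chain genes of naive B cells, were at 138 to 1711 CPM and 6.98 to 126 CPM in them, whereas IGHM did not exceed 0.0696 CPM and IGHD was at 0 in the other 12. The 8 markers of B cells outside the germinal centre summed to 565 to 3654 CPM in AAVS IL4, against 38.2 to 302 CPM elsewhere. Of these, 7 or 8 of the 8 reached 1 CPM there, against 2 to 4 elsewhere. CD27 of this list went the other way. Its median was 77.9 CPM in AAVS IL4, against 134, 129 and 132 CPM in AAVS baseline, CREBBP baseline and CREBBP IL4, with overlapping ranges. The 13 T-cell markers summed to 36.5 to 222 CPM against 2.60 to 38.6 CPM, with 7 to 13 of 13 at 1 CPM or more against 1 to 3. The 8 NK markers summed to 5.45 to 33.8 CPM against 0.533 to 2.27 CPM, and the 10 myeloid markers to 5.89 to 25.8 CPM against 0.447 to 4.25 CPM. The sums of the 7 plasma cell markers (390.4 to 2234 CPM against 125 to 1048 CPM) overlapped between these libraries and the rest. So did those of the 8 stromal and endothelial markers (3.12 to 42.2 CPM against 0.199 to 51.2 CPM) and of the T-cell markers. Of the plasma cell markers, 6 or 7 reached 1 CPM in AAVS IL4, against 4 or 5 elsewhere. PRDM1 was at 2.03 to 80.7 CPM in AAVS IL4 and at most 0.172 CPM elsewhere. XBP1 was at 68.8 to 315 CPM against at most 50.2 CPM, and IRF4 at 49.3 to 362 CPM against at most 1.25 CPM. SDC1, JCHAIN, MZB1 and TNFRSF17 overlapped. CISH, a known STAT6 target that IL4 induces, was at 9.25 to 55.6 CPM in AAVS IL4, at or below 0.328 CPM in both baseline groups, and in CREBBP IL4 at 0.0645 to 0.255 CPM in lines 1, 3 and 4 and at 3.83 CPM in line 2. In bulk RNA, fewer cells of a type and less RNA per cell cannot be told apart. AAVS IL4 enters 3 of the 5 comparisons below and cannot be left out of them; CREBBP IL4 against CREBBP baseline and CREBBP against AAVS at baseline do not use it.

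As background, immediate early genes are transcribed within minutes of a stimulus, without new protein synthesis, and their transcripts are short-lived. MAP kinase signalling reaches them through SRF and its ELK partners at CArG boxes, and cyclic AMP and calcium signalling reach them through CREB at CRE sites, where CREBBP is recruited as a coactivator. FOS and JUN proteins pair as AP-1, EGR proteins are zinc finger factors, and NR4A proteins are orphan nuclear receptors. In B cells these genes are known for their response to the antigen receptor, and they also respond to serum and to cell stress.

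The promoter sequences below are shown because they hold the letters through which these signals are known to act. They are RefSeq sequences on GRCh38.p14, each written 5′ to 3′ on the strand of the gene and ending 1 base before the annotated start. They cover chr14:75278708-75278827 (plus strand) for FOS, chr19:45467876-45467995 (plus) for FOSB, chr19:18281623-18281832 (minus) for JUND, chr5:138465359-138465478 (plus) for EGR1 and chr10:62816367-62816486 (minus) for 1 of the EGR2 starts. Capitals mark CArG boxes and the CRE core TGACG, read on either strand, so that CGTCA is the same core on the other strand.
FOS: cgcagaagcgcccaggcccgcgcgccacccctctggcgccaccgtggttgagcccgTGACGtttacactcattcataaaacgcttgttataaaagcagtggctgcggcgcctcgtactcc
FOSB: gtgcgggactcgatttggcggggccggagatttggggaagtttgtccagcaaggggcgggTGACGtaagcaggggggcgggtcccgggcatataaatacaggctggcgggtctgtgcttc
JUND: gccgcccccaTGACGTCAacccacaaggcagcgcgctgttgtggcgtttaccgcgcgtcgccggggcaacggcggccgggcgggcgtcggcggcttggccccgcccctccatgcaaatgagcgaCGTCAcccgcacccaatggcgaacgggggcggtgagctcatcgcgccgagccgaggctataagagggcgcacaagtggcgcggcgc
EGR1: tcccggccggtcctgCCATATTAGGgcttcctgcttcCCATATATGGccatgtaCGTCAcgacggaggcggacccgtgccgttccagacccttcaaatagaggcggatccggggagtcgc
EGR2: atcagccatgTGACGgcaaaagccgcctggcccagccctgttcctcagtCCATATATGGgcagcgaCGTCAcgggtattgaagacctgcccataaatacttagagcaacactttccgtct

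Of the 10 genes, 9 were found in the RefSeq promoter table, the exception being EGR3. The 250 bases before a start held TGACG on either strand in 8 of these 9 genes, as in 24.9% of the 27305 genes of the table. The full CRE, TGACGTCA, which contains the core on both strands, stood in JUND alone of the 9 and in 2.03% of all genes. A CArG box was found in EGR1 and EGR2, and in 1.44% of all genes. TATAAA was found in FOS, FOSB and JUNB, and in 13.1% of all genes, and the EGR site, GCG and GGGCG with 1 base between them, was found in EGR1 and in 10.1% of all genes. Neither the AP-1 site TGANTCA, present in 8.06% of all genes, nor the STAT6 site, written as TTC and GAA with 4 bases between them and present in 6.55%, was found in the windows of the 9 genes. These are matches of letters in 250 bases and not measured sites. Sites outside these bases were not searched, so a gene without a match here may hold the site elsewhere.

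Levels between the genes were compared per kilobase of the canonical transcript. By the median over 16 libraries the order of levels was JUND at 66.2 CPM per kb, FOS at 61.2, IER2 at 54.9, JUNB at 36.0, EGR1 at 24.4, JUN at 13.4, NR4A1 at 12.8, FOSB at 11.2, EGR3 at 1.09 and EGR2 at 0.807 CPM per kb. The ranges over libraries of each neighbouring pair overlapped. The genes were measured in the same 16 libraries, so overlapping ranges do not show that neighbours had equal levels, and no test was made. The spread was widest for NR4A1, whose highest CPM was 1176 times its lowest, and was 275-fold for EGR2, 200-fold for FOS, 184-fold for EGR1, 126-fold for EGR3, 90.9-fold for FOSB and 36.9-fold for JUN. JUNB, JUND and IER2 varied less, by 12.9-fold, 7.54-fold and 6.68-fold.

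**Figure D1:**
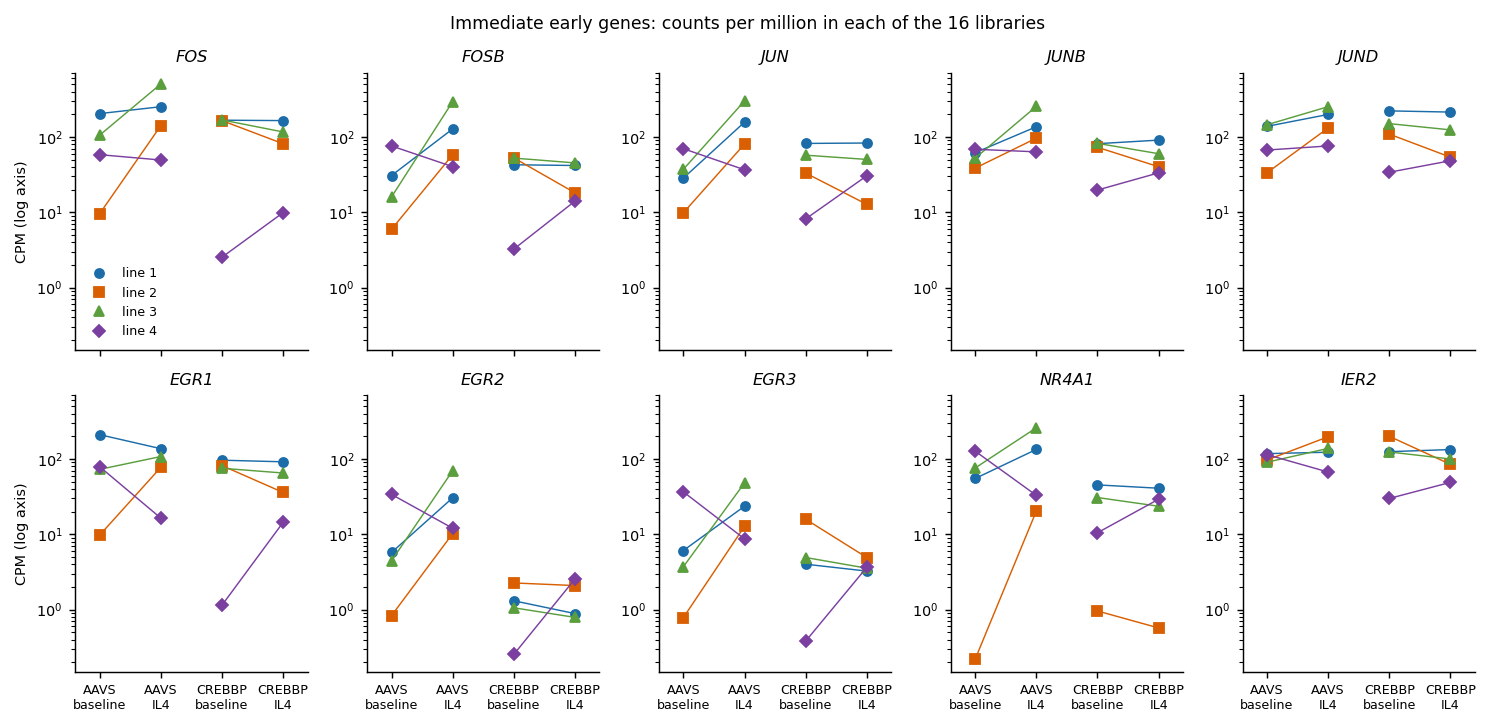
CPM (log axis) of each of the 10 genes in each of the 16 libraries. Points are single libraries, symbols are lines, and a line segment joins the baseline and IL4 libraries of the same pool. In AAVS pools the segments of lines 1, 2 and 3 mostly rise and those of line 4 mostly fall, and in CREBBP pools only the segments of line 4 rise throughout.

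FOS, the classic AP-1 subunit that pairs with JUN proteins, was at 204, 9.56, 106 and 58.0 CPM in lines 1 to 4 of AAVS baseline, and at 251, 141, 505 and 49.3 CPM in AAVS IL4. In CREBBP baseline it was at 167, 165, 168 and 2.53 CPM, and in CREBBP IL4 at 165, 81.1, 116 and 9.87 CPM. Line 3 of AAVS IL4 held the highest level and line 4 of CREBBP baseline the lowest, followed by line 2 of AAVS baseline and line 4 of CREBBP IL4, and the ranges of all 4 groups overlapped. FOSB, its close paralogue, was at 30.7, 5.93, 15.97 and 75.8 CPM in AAVS baseline and at 128, 58.0, 294 and 40.2 CPM in AAVS IL4. Its levels were 42.7, 52.6, 52.3 and 3.23 CPM in CREBBP baseline and 41.7, 18.1, 45.1 and 14.0 CPM in CREBBP IL4. FOSB was high in lines 1 and 3 of AAVS IL4 and low in line 4 of CREBBP baseline, and AAVS IL4 overlapped CREBBP IL4 only through line 4, which at 40.2 CPM lay below lines 1 and 3 of CREBBP IL4.

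JUN, the partner of FOS in AP-1, was at 28.4, 9.83, 37.1 and 69.7 CPM in AAVS baseline and at 157, 80.4, 300.1 and 36.6 CPM in AAVS IL4. The CREBBP pools held 81.9, 33.1, 57.2 and 8.14 CPM of JUN at baseline and, with IL4, 82.9, 12.7, 50.2 and 30.4 CPM. Lines 1, 2 and 3 of AAVS IL4 lay above the whole of AAVS baseline, and line 4 lay inside it. JUNB, a JUN paralogue that is a weaker activator, was at 61.7, 38.5, 52.3 and 68.5 CPM in AAVS baseline and at 136, 96.1, 255 and 63.3 CPM in AAVS IL4. Its levels in the CREBBP pools were 81.2, 72.7, 82.1 and 19.7 CPM at baseline and, with IL4, 90.6, 40.2, 59.8 and 33.3 CPM, with line 4 the lowest in both. JUND, the JUN family member that is present in resting cells, was at 138, 33.4, 145 and 66.9 CPM in AAVS baseline and at 199, 131, 252 and 75.8 CPM in AAVS IL4. In CREBBP pools JUND was at 221, 109, 150.0 and 33.9 CPM at baseline and, with IL4, 213, 53.8, 124 and 48.2 CPM, and all 4 groups overlapped.

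EGR1, a zinc finger activator and the most expressed EGR gene here, was at 210.2, 9.76, 72.8 and 78.9 CPM in AAVS baseline and at 137, 77.6, 108 and 16.4 CPM in AAVS IL4. The CREBBP pools were at 96.3, 81.7, 75.3 and 1.14 CPM at baseline and at 91.7, 36.0, 65.2 and 14.4 CPM with IL4. EGR1 was thus higher with IL4 in lines 2 and 3 of the AAVS pools and lower in lines 1 and 4, and all groups overlapped. EGR2, which with EGR3 is known as a brake on lymphocyte activation, was at 5.74, 0.834, 4.45 and 33.9 CPM in AAVS baseline and at 30.5, 10.2, 70.0 and 12.03 CPM in AAVS IL4. In CREBBP pools EGR2 was at 1.31, 2.26, 1.06 and 0.254 CPM at baseline and at 0.886, 2.09, 0.789 and 2.55 CPM with IL4. Every AAVS IL4 library lay above all 8 CREBBP libraries for EGR2. EGR3 was at 6.09, 0.785, 3.71 and 36.6 CPM in AAVS baseline, at 23.6, 12.8, 48.1 and 8.70 CPM in AAVS IL4, at 4.01, 15.9, 4.92 and 0.382 CPM in CREBBP baseline and at 3.25, 4.92, 3.55 and 3.65 CPM in CREBBP IL4. Its AAVS IL4 and CREBBP IL4 libraries did not overlap, and the remaining pairs of groups did. How many of all genes lacked overlap between these groups was not counted, so whether this is particular to EGR2 or EGR3 cannot be said.

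NR4A1, an orphan nuclear receptor widely used as a reporter of antigen receptor signals, was at 55.1, 0.221, 76.0 and 127 CPM in AAVS baseline and at 134, 20.4, 259.6 and 32.8 CPM in AAVS IL4. It was at 45.3, 0.959, 30.8 and 10.5 CPM in CREBBP baseline and at 40.9, 0.571, 23.6 and 29.3 CPM in CREBBP IL4. Line 2 was the lowest in every group, with 20.4 CPM in AAVS IL4 and at most 0.959 CPM in its other 3 libraries. IER2, a nuclear protein of the early response that is not a DNA-binding factor of these families, was at 118, 97.0, 90.6 and 114 CPM in AAVS baseline and at 123, 197, 138 and 67.0 CPM in AAVS IL4. In CREBBP pools IER2 was at 125, 199.9, 124 and 29.9 CPM at baseline and at 133, 84.9, 99.9 and 48.9 CPM with IL4. All 4 groups overlapped for IER2, and its lowest levels were in line 4 of the CREBBP pools.

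Several of the 10 genes overlap exons of other annotated genes. JUNB shares 259 exonic bases with HOOK2 on the opposite strand, NR4A1 shares 754 with the antisense gene NR4A1AS, IER2 shares 946 and 662 with antisense lncRNAs, EGR3 shares 164 with an antisense lncRNA and EGR2 shares 145 with a lncRNA on its own strand. Strand use in the counting is not given in the sources used here, so reads of these bases cannot be assigned with certainty.

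**Figure D2:**
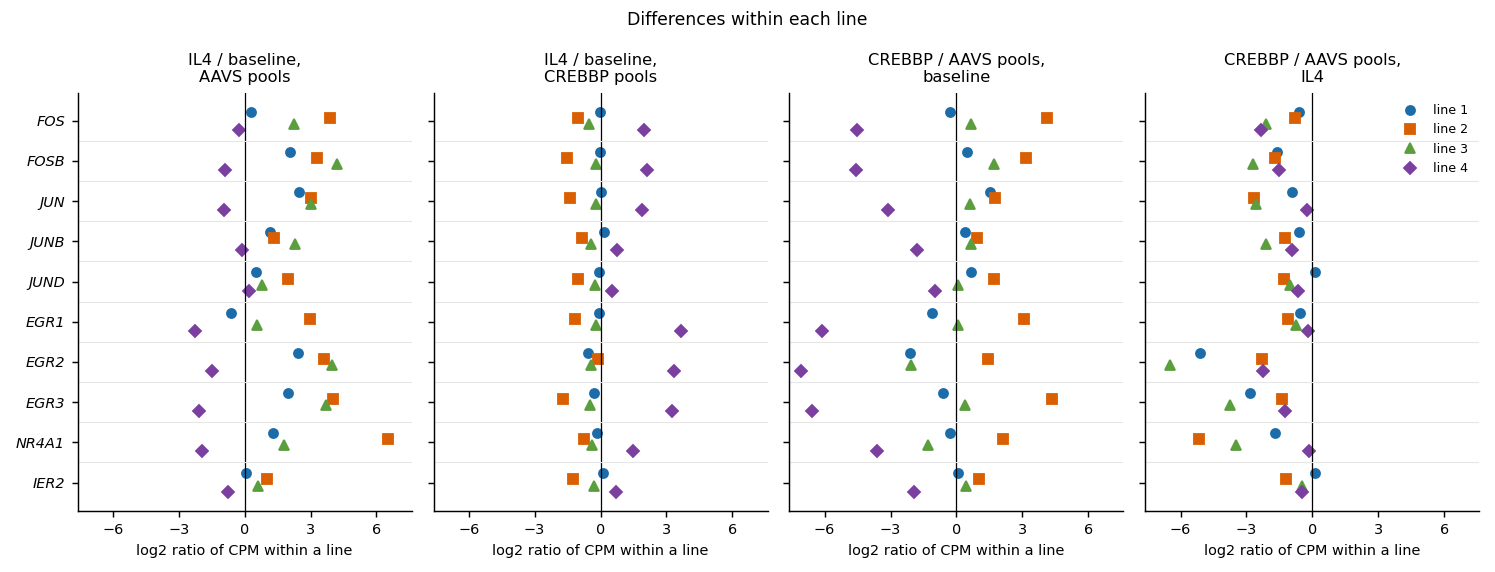
Differences within each line, as log2 ratios of CPM, for 4 comparisons. Each point is 1 line, and points right of the vertical line at 0 are higher in the first-named group. Line 4 stands mostly opposite to lines 2 and 3 in the first 3 panels, and in the last panel nearly all points lie left of 0.

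The 10 genes mostly shared a direction within a line, and that direction differed between lines. For IL4 against baseline in AAVS pools, 9 of 10 genes were higher in line 1, 10 of 10 in line 2 and 10 of 10 in line 3, with median log2 ratios of 1.21, 3.16 and 2.27, whereas 9 of 10 were lower in line 4, with a median of -0.92. For IL4 against baseline in CREBBP pools, 7 of 10 were lower in line 1, 10 of 10 in line 2 and 10 of 10 in line 3, with medians of -0.04, -1.10 and -0.35, whereas all 10 were higher in line 4, with a median of 1.94. Line 4 was thus opposite to lines 2 and 3 for all 10 genes in the CREBBP pools and for all but JUND in the AAVS pools. CREBBP against AAVS at baseline gave 10 of 10 genes higher in line 2 and 8 of 10 in line 3, with medians of 1.93 and 0.43, 5 higher and 5 lower in line 1, and 10 of 10 lower in line 4, with a median of -4.06. With IL4, by contrast, 8 of 10 were lower in CREBBP pools in line 1 and 10 of 10 in each of lines 2, 3 and 4, with medians of -0.77, -1.33, -2.35 and -0.79. These ratios each compare 1 library with 1 library, and comparisons that share a group of libraries are not independent of each other.

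The first comparison asks what 4 h of IL4 changed in control pools. FOSB and EGR2, both higher in lines 1, 2 and 3 and lower in line 4, had the largest fitted differences, with log2 fold changes of 2.24 ± 0.86 and 2.298 ± 0.98 (SE, n = 4), followed by EGR3 at 2.11 ± 1.11, JUN at 1.98 ± 0.72, NR4A1 at 1.45 ± 1.25 and FOS at 1.41 ± 0.73. JUNB was at 1.10 ± 0.35, JUND, higher in all 4 lines, at 0.79 ± 0.33, IER2 at 0.17 ± 0.31 and EGR1 at -0.0013 ± 0.88. With the line as a block, edgeR's quasi-likelihood test (Benjamini-Hochberg adjustment over 20310 genes) called 0 of the 10 at an adjusted p under 0.05 and 2.4% of all genes tested. The lowest adjusted p was 0.213, for JUNB, and 3 genes, FOSB, JUN and JUNB, had an unadjusted p under 0.05, as did 16% of all genes. DESeq2 called 3, FOSB, JUN and EGR2, and 10.2% of all genes. Without line 4, JUN at 2.75 (edgeR adjusted p 0.0246) and EGR2 at 3.24 (0.0425) passed, as did 1.37% of all genes in that fit. Leaving out line 1, 2 or 3 instead gave 0 of the 10, beside 64, 1035 and 350 of all genes. The median of the 10 was 1.43, against 0.01 over all genes tested.

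The levels in AAVS IL4 had the same order of lines as some marker sums in these libraries and not others. The differences from baseline had another order. The order of lines by the summed CPM of the 10 genes in AAVS IL4 was line 3 at 2229, line 1 at 1319, line 2 at 826 and line 4 at 402. The sum of the 8 markers of B cells outside the germinal centre had this order too, at 3654, 2018, 889 and 565 CPM, and so did the 13 T-cell markers, at 222, 111, 73.6 and 36.5 CPM. The sums of NK, myeloid, plasma cell and stromal and endothelial markers did not, with line 2 lowest. Those of B-cell and germinal centre markers did not either, with line 3 lowest. In lines 3, 1, 2 and 4, B-cell markers were at 2613, 4614, 3522 and 4020 CPM. Germinal centre markers, in the same order of lines, were at 833, 1011, 1008 and 1085 CPM. In lines 3, 1, 2 and 4, NK markers were at 33.8, 14.2, 5.45 and 8.72 CPM and myeloid markers at 25.8, 13.5, 5.89 and 6.56 CPM. Plasma cell markers were at 2234, 1139, 390 and 737 CPM, and stromal and endothelial markers at 42.2, 41.8, 3.12 and 40.9 CPM. By the median log2 ratio of IL4 to baseline given above, the order was line 2, line 3, line 1 and line 4. The part of other cells in the difference was not tested. In the other 3 groups the 10 genes summed to 109.7 to 866 CPM while IGHD was at 0.

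**Figure D3:**
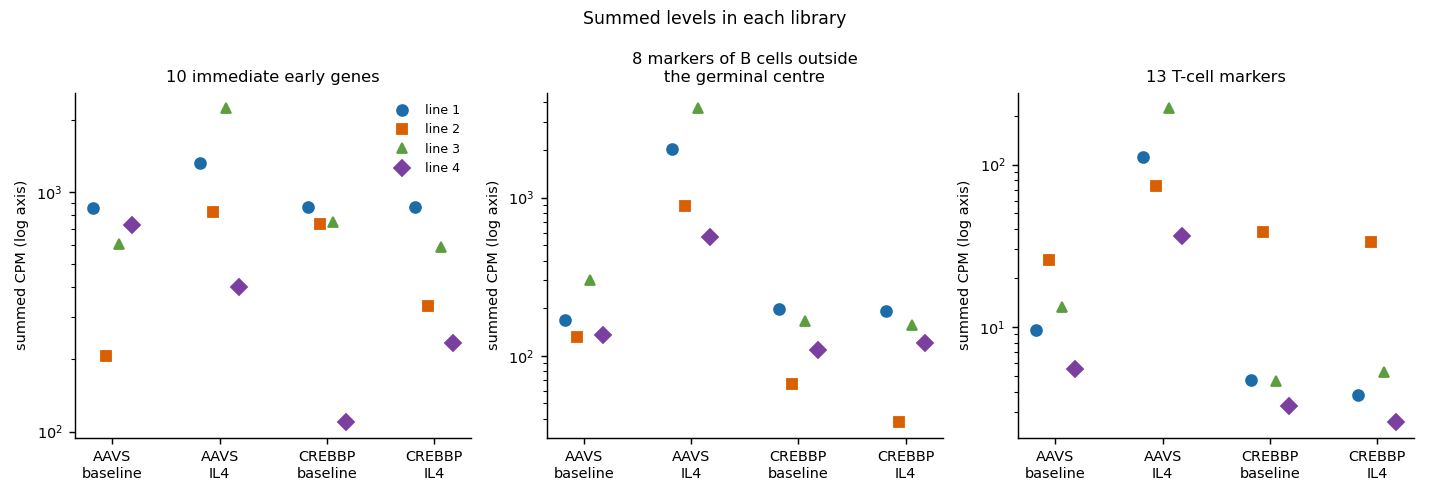
Summed CPM (log axes) of the 10 immediate early genes, of 8 markers of B cells outside the germinal centre and of 13 T-cell markers in each library. Points are single libraries by line. In AAVS IL4 all 3 sums have the same order of lines, with line 3 highest and line 4 lowest.

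The second comparison asks the same of CREBBP pools and uses none of the AAVS IL4 libraries. None of the 10 genes passed the test, and the fitted log2 fold changes were small, from -0.16 ± 0.20 for JUND to 0.47 ± 0.65 for EGR2 (SE, n = 4). FOS was at 0.08 ± 0.39, FOSB at 0.06 ± 0.43, JUN at 0.10 ± 0.39, EGR1 at 0.35 ± 0.61 and NR4A1 at 0.12 ± 0.33. The count of 0 of 10 stands beside 0% of the 18282 genes tested, edgeR's adjusted p-values were 0.930 to 0.999, 0 of the 10 and 502 of all genes (2.75%) had an unadjusted p under 0.05, and DESeq2 called 0 of the 10 and 1 gene in all (0.00547%). A fitted value near 0 here is the balance of higher values in line 4 and lower values in lines 2 and 3. EGR1, for example, went from 1.14 to 14.4 CPM in line 4 and from 81.7 to 36.0 CPM in line 2. The median of the 10 was 0.07, against -0.04 over all genes.

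The third comparison asks how CREBBP pools differed from AAVS pools without IL4. EGR2 had the largest difference, with a log2 fold change of -2.13 ± 1.06 (SE, n = 4), lower in lines 1, 3 and 4 and higher in line 2, and NR4A1 followed at -0.97 ± 0.64, lower in the same 3 lines. FOSB was at 0.79 ± 1.02, JUN at 0.55 ± 0.67, JUND at 0.47 ± 0.36, FOS at 0.24 ± 1.10, JUNB at 0.19 ± 0.39, IER2 at 0.06 ± 0.41, EGR3 at -0.10 ± 1.35 and EGR1 at -0.56 ± 1.15. In edgeR's test 0 of the 10 passed, as did 0% of the 18936 genes tested, with adjusted p-values from 0.432 for EGR2 to 0.983. At an unadjusted p under 0.05 there were 0 of the 10 and 2422 of all genes (12.8%), and DESeq2 called 0 of the 10 and 511 of all genes (2.7%). The standard errors of FOS, FOSB, EGR1, EGR2 and EGR3 exceeded 1 on the log2 scale, and lines 2 and 4 lay at opposite ends, with log2 ratios for FOS of 4.11 in line 2 and -4.52 in line 4.

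The fourth comparison sets CREBBP IL4 against AAVS IL4. All 10 genes had lower fitted levels in CREBBP pools, with a median log2 fold change of -1.26, against -0.05 over all genes tested. FOSB fell, with a log2 fold change of -1.60 ± 0.29 (SE, n = 4; edgeR adjusted p 0.0336), and was lower in all 4 lines. It was the 1 gene of the 10 that passed, where 4.39% of 19581 genes did. EGR2 at -3.68 ± 0.88 (edgeR adjusted p 0.0604) and EGR3 at -2.03 ± 0.53 (0.0737) did not pass. NR4A1 was at -2.295 ± 0.71, JUN at -1.33 ± 0.40, FOS at -1.18 ± 0.41, JUNB at -0.93 ± 0.29, JUND at -0.44 ± 0.26, EGR1 at -0.37 ± 0.21 and IER2 at -0.23 ± 0.23, with edgeR adjusted p-values from 0.0982 to 0.560. At an unadjusted p under 0.05 there were 7 of the 10 and 25.6% of all genes, and DESeq2 called the same 7, all but JUND, EGR1 and IER2, and 21.2% of all genes. The call of FOSB was lost without line 1 (-1.64, edgeR adjusted p 0.137), without line 3 (-1.31, 0.109) and without line 4 (-1.72, 0.1004), fits in which 0.524%, 0.124% and 1.63% of all genes were called. Without line 2 the genes called were FOSB, EGR2 (-4.41, edgeR adjusted p 0.0154) and EGR3 (-2.43, 0.0214), beside 12.4% of all genes. Without the line as a block, FOSB was not called (-1.85, edgeR adjusted p 0.172) and EGR2 was (-3.94, 0.0259), beside 2.76% of all genes. With all 16 libraries in 1 fit, FOSB was not called either (-1.65, edgeR adjusted p 0.152), and EGR2 (-3.95, 0.0185) and NR4A1 (-2.73, 0.0363) were, beside 20% of all genes. The marker sums of the AAVS IL4 libraries given above apply to this comparison too, and their part in it was not tested.

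The fifth comparison asks whether the response to IL4 differed between CREBBP and AAVS pools. The fitted difference in response was below 0 for 9 of 10 genes, with a median of -1.20 against 0.05 over all genes. FOSB was at -2.06 ± 1.02, EGR3 at -1.95 ± 1.38, JUN at -1.77 ± 0.87, EGR2 at -1.69 ± 1.24, FOS at -1.22 ± 0.92, NR4A1 at -1.19 ± 1.297, JUNB at -1.05 ± 0.45, JUND at -0.85 ± 0.42, IER2 at -0.21 ± 0.43 and EGR1 at 0.48 ± 1.20 (log2, SE, 4 lines). In edgeR's test 0 of the 10 passed, where 0.638% of 21932 genes did, with adjusted p-values from 0.339 for JUNB to 0.896 for EGR1. JUNB alone of the 10 had an unadjusted p under 0.05, as did 13.3% of all genes, and DESeq2 called 0 of the 10 and 5.01% of all genes. Without line 4 edgeR called 4, namely JUN at -3.18 (adjusted p 0.00684), FOSB at -3.61 (0.0333), EGR2 at -3.51 (0.0376) and EGR3 at -3.86 (0.0394), beside 0.548% of all genes. Leaving out line 1, 2 or 3 instead gave 0 of the 10, beside 16, 264 and 18 of all genes.

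**Figure D4:**
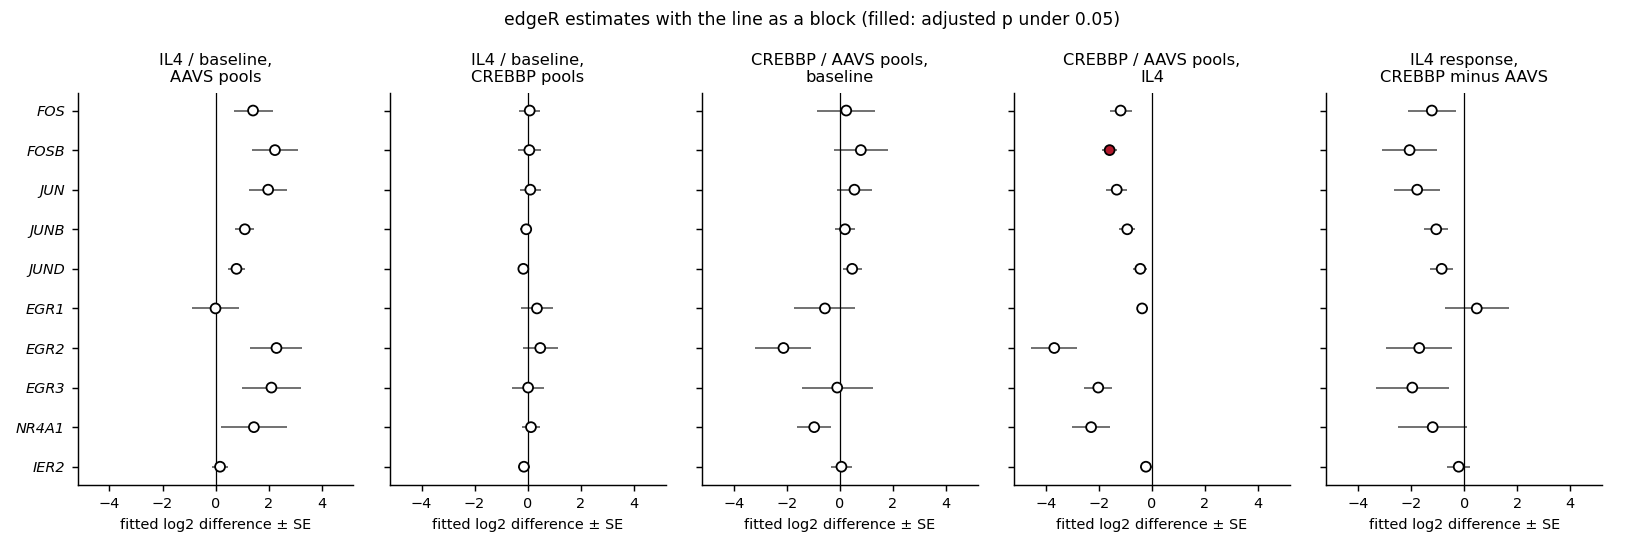
Fitted log2 differences of the 10 genes in the 5 comparisons, from edgeR with the line as a block or, in the last panel, a term for each pool. Bars are 1 SE and a filled point has an adjusted p under 0.05. FOSB in CREBBP against AAVS pools with IL4 is the 1 filled point.

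Other genes of the same pathways were counted from lists. For IL4 in AAVS pools, edgeR called 2.4% of all 20310 genes tested, and the counts called below stand beside that share. Among 14 other AP-1 family genes, 13 were tested in the AAVS pools and 3 rose with IL4: FOSL2, a FOS paralogue, BATF, an AP-1 factor of activated lymphocytes, and MAF. FOSL2 was at 4.21, 1.57, 5.62 and 6.38 CPM in AAVS baseline and at 53.4, 16.6, 107 and 29.9 CPM in AAVS IL4, and did not exceed 6.17 CPM in the CREBBP groups. Its log2 fold change was 3.33 ± 0.34 (edgeR adjusted p 0.0089), and BATF was at 2.24 ± 0.31 (0.0226). MAF was at 0.650 to 42.5 CPM in AAVS IL4 and at 0 in AAVS baseline. Its mean was at least 1074-fold higher against a floor of 3 counts over the group, a bound that does not hold for each line. The median of the 13 was 2.03, against 0.01 over all genes.

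Among 6 other EGR and NR4A genes and their NAB corepressors, 5 were tested. NR4A2 and NR4A3, the paralogues of NR4A1, rose with IL4 in AAVS pools, beside 2.4% of all genes called. NR4A2 was at 54.6, 11.1, 115 and 9.87 CPM in AAVS IL4 and at or below 0.343 CPM in the other 12 libraries, with a log2 fold change of 7.48 ± 0.74 (edgeR adjusted p 0.00822). NR4A3 was at 3.19, 0.907, 4.72 and 3.28 CPM in AAVS baseline and at 76.2, 15.03, 147 and 16.5 CPM in AAVS IL4, with a log2 fold change of 3.94 ± 0.45 (0.0126). Both were higher with IL4 in line 4 of the AAVS pools, where NR4A1 was lower.

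Of 33 other early response genes, 31 were tested, with a median of 1.59 against 0.01 over all genes. Of the 31, 6 rose with IL4 in AAVS pools, beside 2.4% of all genes called. Among them were KLF2, a factor of resting naive lymphocytes, at 5.82 ± 0.60 (edgeR adjusted p 0.0095), RHOB, a small GTPase, at 4.92 ± 0.73 (0.0266), CD83, a surface marker of activated B cells, at 2.61 ± 0.31 (0.0148), and ZFP36L1, an mRNA decay factor, at 1.70 ± 0.22 (0.0193). KLF4 was at 0 in AAVS baseline and at 0.383 to 26.1 CPM in AAVS IL4. Its mean was at least 602-fold higher against the same floor, which again is no bound for each line. Of 12 ERK phosphatases and Sprouty inhibitors, 10 were tested and 2 rose, DUSP4 and SPRY1. The median of this list was 1.21, against 0.01 over all genes. DUSP4, a nuclear phosphatase of MAP kinases, was at 38.3, 20.5, 79.7 and 6.81 CPM in AAVS IL4, while in AAVS baseline it was at 0.981 CPM in line 2 and at 0 in the other lines. DUSP1, the phosphatase most used as an immediate early gene, did not pass, at 1.21 ± 0.75 (0.447).

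**Figure D5:**
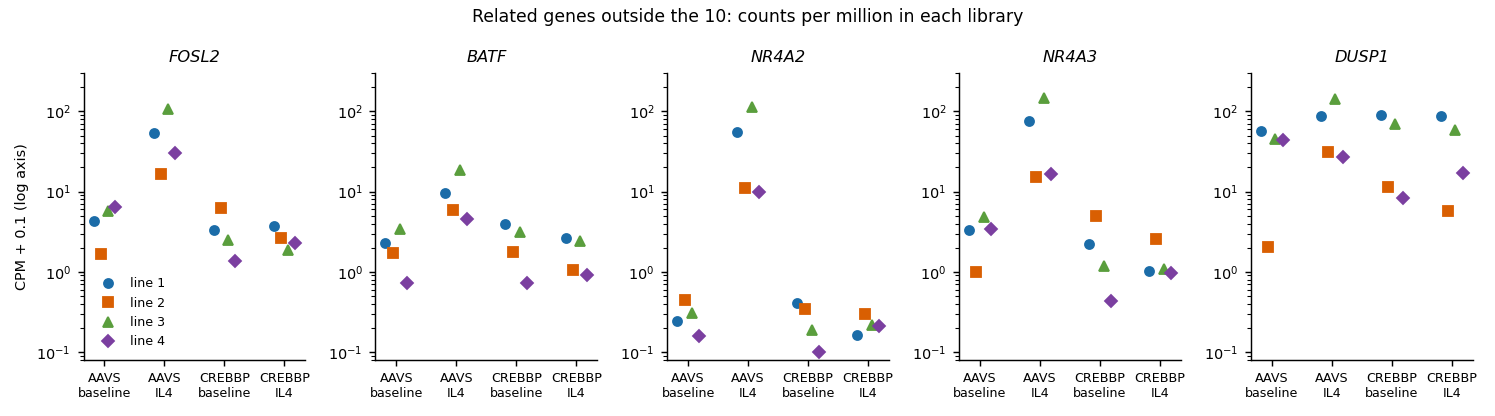
CPM plus 0.1 (log axis) of 5 genes outside the 10 in each library, by line. FOSL2, BATF, NR4A2 and NR4A3 are highest in the AAVS IL4 library of every line, and DUSP1 is not.

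Of 16 factors that bind immediate early promoters and 20 genes of the MAP kinase cascade, 0 passed edgeR's test for IL4 in AAVS pools, 2 in each list had an unadjusted p under 0.05, and their medians were -0.15 and -0.07. Among 11 heat shock genes 1 passed, HSPA1A, at 5.75 ± 0.34 (edgeR adjusted p 0.00158), with the near-identical HSPA1B making the count of each uncertain, and the median of the list was -0.12. In CREBBP IL4 against CREBBP baseline and in CREBBP against AAVS at baseline, edgeR called 0 genes in all 7 lists, and between 0 and 4 genes of a list had an unadjusted p under 0.05. The medians of the lists do not depend on the genes at 0 in a group, since the floor puts each of these beyond the median of its list.

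With IL4, CREBBP pools were lower than AAVS pools for other AP-1 genes that included FOSL2, BATF and MAF (13 tested), 2 of 5 in the EGR and NR4A list (NR4A2 and NR4A3), 9 of 31 early response genes, 2 of 10 phosphatases and Sprouty genes (DUSP4 and DUSP8) and 1 of 11 heat shock genes (HSPA1A), and no gene of the 7 lists was called higher. In this comparison edgeR called 4.39% of all genes, and the median over all genes was -0.05. The list medians were -1.93, -1.74, -2.02, -1.49 and 0.08. The 2 lists of upstream genes had 0 calls, with 2 and 0 genes at an unadjusted p under 0.05 and medians of -0.13 and 0.09. In the difference in response, FOSL2 was at -3.36 ± 0.46 (edgeR adjusted p 0.0102), BATF at -2.46 ± 0.45 (0.0381), NR4A2 at -7.36 ± 1.17 (0.0227) and NR4A3 at -4.08 ± 0.63 (0.0193). There, 4 of 31 early response genes and 1 of 11 heat shock genes also passed, all below 0, beside 0.638% of all genes. Of 11 phosphatases and Sprouty genes 0 passed, and 3 had an unadjusted p under 0.05. FOSL2, BATF, NR4A2 and NR4A3 were at their highest, within each line, in the libraries that also held IGHM and CD44, and the part of other cells in these differences was not tested.

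Across libraries the 10 genes varied together. After the mean of each line was subtracted from log2(CPM + 1), Pearson's r between pairs of the 10 had a median of 0.80 over 16 libraries (45 pairs, 0.59 to 0.95) and of 0.82 over the 12 libraries without AAVS IL4 (0.39 to 0.98). These are descriptions over libraries that share lines and groups. FOSB and EGR3 had the highest mean r with the other members over 16 libraries, at 0.85 each, and EGR1 the lowest, at 0.73. The genes outside the 10 with the most similar pattern over 16 libraries, by the mean r with the 10, were CHMP1B at 0.85, UAP1L1 at 0.84, KLF10, an early response factor, at 0.84, RNF24 at 0.84 and DUSP1 at 0.83, out of 9488 genes. Without AAVS IL4 they were RND1 at 0.88, NEU1 at 0.88, DUSP1 at 0.86, CHMP1B at 0.85 and IQCN at 0.85, out of 8912, so that 2 of the 5 were shared.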

How the data were processed

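Total RNA was ribosomal RNA depleted and sequenced in pairs of 151 bp from 50 ng per library. Per the labels and the methods, the authors used Cutadapt 2.3, FastQC 0.11.8, MultiQC 1.7, STAR 2.7.8a on GRCh38 and RSEM 1.3.3, and the files they deposited hold RSEM's estimated count of each gene, in whole numbers and not normalized. The methods name Ensembl as the source of the genome, and the annotation release behind the counts is not given in the sources used here. Of the 62714 genes, 62639 are in GENCODE release 44, and 20930 have no symbol in the files.

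CPM was computed as the count over the library total, and CPM per kb used the canonical transcript length of GENCODE release 44. After filterByExpr and TMM scaling, genes were tested in R 4.3.3 by edgeR 4.0.16's quasi-likelihood test, blocked by line. P-values were adjusted by Benjamini-Hochberg over all genes tested, and an adjusted p under 0.05 was called. The difference in response was fitted in 1 model of the 16 libraries with a term for each pool. SE is the absolute log2 fold change over the square root of F. With whole numbers deposited, no rounding was needed. Scripts were tested on simulated data.

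Same-numbered libraries come from the same cell line, which pairs them. Their deviations from the group means correlated with medians of 0.64, 0.73, 0.31 and 0.72 in lines 1 to 4 (lowest -0.16, in line 3), and no pair of libraries in a group agreed within sampling noise (chi-square per degree of freedom at least 98.7). With the line as a block, the p-values rest on how far the difference within a line varied over the 4 lines. No line was repeated within a group, so this variation includes that of single libraries.

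The alternatives were DESeq2's size factors in edgeR, no filter, a minimum of 10 counts in every library, a fit without the block, leaving out each line, the DESeq2 1.42.0 Wald test, and all 16 libraries in 1 fit. The members and the gene lists were chosen with earlier results of these data known. Genes outside the 10 were named where called in a list, up to the 5 largest fitted changes per list and comparison, or for their likeness to the 10 (genes with a symbol and 10 CPM or more in at least 4 libraries). DUSP1, DUSP8 and the marker genes were named beside them with their values or calls. The result for 1 gene of the AP-1 list is not reported here. Floors of 3 counts cover counting error only.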

Additional observations from a re-analysis of the deposited data

Results flagged for a closer look

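For each of the 10 genes in each group of 4 libraries, levels were taken as log2 CPM. On that scale, the gap between the most extreme library and its nearest neighbour was divided by the range of the group. Of 40 such groups, 6 exceeded Dixon's 95% critical value for groups of this size, and chance flags about 1 in 20.

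Line 4 was far below the other lines in CREBBP baseline for FOS (2.53 CPM, gap over range 0.995), FOSB (3.23 CPM, 0.925), JUNB (19.7 CPM, 0.915) and EGR1 (1.14 CPM, 0.944). These come from 1 library. In it the 10 genes summed to 109.7 CPM, the lowest of the 16 sums, and its total count of 55042473 was not low. Line 2 was far below the others for NR4A1 in AAVS baseline (0.221 CPM, 0.869) and in CREBBP IL4 (0.571 CPM, 0.871).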

How the results depend on the processing

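Counts of the 10 genes called changed with the setting. For IL4 in AAVS pools they were 0 in the reported fit, 2 with no filter and 3 with DESeq2. At baseline, CREBBP against AAVS gave 2 with no filter. With IL4 it gave 6 with no filter, 2 with at least 10 counts in every library, 7 with DESeq2 and 2 with all 16 libraries in 1 fit, where EGR2 and NR4A1 were called and FOSB was not. The difference in response gave 5 with no filter. Leaving out each line gave 0 to 2, 0 to 0, 0 to 0, 0 to 3 and 0 to 4 in the order of the report. Genes called over all genes tested (488, 0, 0, 859 and 140) became 1851, 40, 586, 3466 and 1191 with no filter, 25, 0, 0, 682 and 69 with at least 10 counts, 2062, 1, 511, 4154 and 1099 with DESeq2, and 1270, 0, 0 and 4393 with all 16 libraries. They ranged over 64 to 1035, 0 to 0, 0 to 515, 25 to 2547 and 16 to 264 when a line was left out.

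Without the line as a block (no replicate block), 0, 0, 0, 1 and 0 of the 10 genes and 467, 0, 0, 540 and 2 of all genes were called, and the pairing changed no other call among the 10 than those of FOSB and EGR2 with IL4. NR4A1 was not tested with at least 10 counts in every library where its count in line 2 was lower. DESeq2's size factors moved the median of all genes by less than 0.1 on the log2 scale in each comparison.

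Signs changed for the results below, none of which was called in the reported fit. For IL4 in AAVS pools, EGR1 was 0.0066 with at least 10 counts. For IL4 in CREBBP pools without the block, FOS was -0.40, FOSB -0.36, JUN -0.092, EGR1 -0.28, EGR3 -0.61 and NR4A1 -0.022, and with all 16 libraries in 1 fit FOS was -0.26, FOSB -0.34, JUN -0.066, EGR1 -0.067 and EGR3 -0.52. At baseline FOS was -0.13 in that fit. When a line was left out, log2 fold changes for IL4 in AAVS pools ran from -0.88 to 0.81 for EGR1 and from -0.15 to 0.48 for IER2. In CREBBP pools they ran from -0.44 to 0.41 for FOS, -0.51 to 0.45 for FOSB, -0.43 to 0.44 for JUN, -0.30 to 0.18 for JUNB, -0.40 to 0.73 for EGR1, -0.28 to 0.92 for EGR2, -0.74 to 0.52 for EGR3, -0.35 to 0.45 for NR4A1 and -0.40 to 0.065 for IER2. At baseline they ran from -0.97 to 1.47 for FOS, -0.25 to 1.89 for FOSB, -0.086 to 0.77 for JUNB, -1.82 to 0.68 for EGR1, -1.51 to 1.27 for EGR3 and -0.31 to 0.64 for IER2, and the difference in response from -1.22 to 1.67 for EGR1 and -0.88 to 0.21 for IER2. The cause of these changes was not tested. The 10 genes had lower fitted values in CREBBP than AAVS pools with IL4 in each of these fits that tested them. With 4 lines per group, standard errors reached 1.38 on the log2 scale, and differences well above that size were also not called. EGR2, for example, was not called at 2.298 ± 0.98 for IL4 in AAVS pools. It was not called at -3.68 ± 0.88 for CREBBP against AAVS pools with IL4 either.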

Other observations

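The ratio of EGR2 to EGR1 counts was chosen after the values were seen and is given with no test. In AAVS IL4 there were 22.3, 13.2, 65.0 and 73.4 counts of EGR2 per 100 counts of EGR1 in lines 1 to 4, against 2.73, 8.54, 6.11 and 42.9 in AAVS baseline. In CREBBP pools there were 1.36, 2.77, 1.41 and 22.2 at baseline and 0.966, 5.81, 1.21 and 17.7 with IL4. Within each line the AAVS IL4 library had the highest ratio, and line 4 had the highest ratio in each group.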
